A study of Rattus norvegicus with 20 samples.

Results

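The heat shock and endoplasmic reticulum (ER) chaperone genes are a set of 39 genes listed by name: 18 of the cytosol with their regulator Hsf1, 3 of the mitochondrion, and 18 of the ER with the regulators of the unfolded protein response. A probe carrying the gene's name was found for 38 of the 39, the exception being Hspa1a. All 38 had signals well above background on all 20 arrays and were tested, 17 cytosolic, 3 mitochondrial and 18 ER genes among 16801 genes tested and 26214 gene names on the array. RNA of the whole mesenteric artery was measured on 1-colour Agilent arrays in 5 groups of 4 rats each, labelled as biological replicates. SHR/Izm, the spontaneously hypertensive rat, and SHRSP/Izm, its stroke-prone relative, were untreated. WKY/Izm rats, the normotensive strain, had received the 2-kidney 1-clip operation (2K1C) or the 1-kidney 1-clip operation (1K1C), or had no operation (called WKY here). In 2K1C the artery of 1 kidney is narrowed by a clip and the other kidney stays, and in 1K1C the other kidney is removed. All rats are labelled with an age of 6 weeks, and the WKY-based groups with a period of 3 weeks. The labels do not say whether 6 weeks was the age at operation or at sampling, and the controls without an operation are not described as sham-operated, so clip and surgery cannot be told apart.

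Chaperones help other proteins to fold, keep them soluble and refold them after stress. In the cytosol, unfolded proteins release the transcription factor HSF1, which binds heat shock elements in the promoters of Hsp70, Hsp90, small heat shock protein and J-protein genes. In the ER, unfolded proteins draw the Hsp70 family member BiP (Hspa5) away from the sensors IRE1, PERK and ATF6, whose signals reach the genes through XBP1, ATF4 and ATF6 itself. Vascular smooth muscle uses several small heat shock proteins at its contractile filaments, among them Hspb1, Hspb6 and Cryab.

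The promoter windows below, 250 bases before to 50 bases from the start site on (RefSeq, build GRCr8), were available for 30 of the 39 genes and are shown because the cytosolic and ER genes carry different elements in them. The first set has heat shock elements in capitals. In the Hspb8 and Dnajb1 windows the capitals are GAA and TTC with 2 bases between them. In the Hspe1 window they are 2 overlapping runs of 3 such units, and this window shares 211 bases with that of Hspd1, its neighbour on the opposite strand.
Hspb8, chr12:45837058-45837357, plus strand: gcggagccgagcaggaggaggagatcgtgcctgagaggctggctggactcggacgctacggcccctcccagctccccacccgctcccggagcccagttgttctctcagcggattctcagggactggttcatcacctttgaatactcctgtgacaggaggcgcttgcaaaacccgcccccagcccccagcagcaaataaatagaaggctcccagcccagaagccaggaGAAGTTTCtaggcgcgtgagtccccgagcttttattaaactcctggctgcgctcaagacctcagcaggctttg
Dnajb1, chr19:41431092-41431391, minus strand: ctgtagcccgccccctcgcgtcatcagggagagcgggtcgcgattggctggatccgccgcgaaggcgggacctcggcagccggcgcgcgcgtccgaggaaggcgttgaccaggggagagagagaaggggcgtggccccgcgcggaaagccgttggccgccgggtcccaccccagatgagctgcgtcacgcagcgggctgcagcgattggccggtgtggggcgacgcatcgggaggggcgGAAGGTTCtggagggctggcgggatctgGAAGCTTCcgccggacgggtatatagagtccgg
Hspe1, chr9:64084077-64084376, plus strand: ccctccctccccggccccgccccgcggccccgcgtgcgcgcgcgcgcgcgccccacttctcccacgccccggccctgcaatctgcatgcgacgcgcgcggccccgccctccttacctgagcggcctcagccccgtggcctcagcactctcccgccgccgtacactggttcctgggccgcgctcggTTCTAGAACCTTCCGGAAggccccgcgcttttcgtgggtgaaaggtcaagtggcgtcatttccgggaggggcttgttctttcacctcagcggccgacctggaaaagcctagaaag
The second set has the ER stress response element in capitals (CCAAT, 9 bases, CCACG) for Hspa5 and Hsp90b1. In the Herpud1 window the capitals are the second form of that element (ATTGG, 1 base, CCACG). All elements were searched on both strands.
Hspa5, chr3:38452766-38453065, plus strand: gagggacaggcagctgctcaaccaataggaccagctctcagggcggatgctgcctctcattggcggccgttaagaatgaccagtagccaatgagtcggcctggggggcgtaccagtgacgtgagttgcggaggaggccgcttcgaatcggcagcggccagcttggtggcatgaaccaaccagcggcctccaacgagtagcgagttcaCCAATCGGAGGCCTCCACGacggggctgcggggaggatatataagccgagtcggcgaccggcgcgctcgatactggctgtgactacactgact
Hsp90b1, chr7:23012244-23012543, minus strand: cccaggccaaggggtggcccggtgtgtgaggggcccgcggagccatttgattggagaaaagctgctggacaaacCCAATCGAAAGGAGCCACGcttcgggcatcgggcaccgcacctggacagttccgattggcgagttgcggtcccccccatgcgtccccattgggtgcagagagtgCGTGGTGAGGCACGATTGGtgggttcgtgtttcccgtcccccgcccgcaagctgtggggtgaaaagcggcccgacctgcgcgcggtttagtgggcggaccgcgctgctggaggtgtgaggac
Herpud1, chr19:10614658-10614957, minus strand: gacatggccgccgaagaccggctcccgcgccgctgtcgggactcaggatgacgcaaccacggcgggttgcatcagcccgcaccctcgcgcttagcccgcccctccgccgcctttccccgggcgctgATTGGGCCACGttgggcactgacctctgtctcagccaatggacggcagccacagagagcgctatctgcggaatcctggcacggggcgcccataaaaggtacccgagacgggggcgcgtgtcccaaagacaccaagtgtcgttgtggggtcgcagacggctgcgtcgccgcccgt
The 3-unit heat shock element (GAA, 2 bases, TTC, 2 bases, GAA) was found in 5 of the 30 windows (Hspa8, Hsph1, Dnaja1, Hspd1 and Hspe1), 3 of 12 cytosolic, 2 of 3 mitochondrial and 0 of 15 ER genes. It lies in 0.798% of all 33469 promoter windows. The 2-unit form (GAA, 2 bases, TTC), which every 3-unit element holds, was in 8 of 12 cytosolic, 3 of 3 mitochondrial and 1 of 15 ER windows, against 8.59% of all windows. The ER stress response element was in 7 of 15 ER windows (Hspa5, Hsp90b1, Dnajc3, Creld2, Calr, Canx and Xbp1) and in 0 of 12 cytosolic windows, against 0.0657% of all windows. Its second form was in the windows of Hyou1 and Herpud1, against 0.0508% of all windows. Hspa1b, Hspb2, Cryab, Hsp90aa1, Dnajb4, Hsf1, Manf, Pdia3 and Pdia6 had no entry. These matches describe the letters of the windows and are no measurement of binding.

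The probe of Hspb8, the only gene of the set called in a comparison of 2 groups, is 60 bases long. It is shown with its position on build rn4 as the array files give it, which spans an intron, and it is the only probe of that name.
Hspb8 probe, chr12:41414450-41420599: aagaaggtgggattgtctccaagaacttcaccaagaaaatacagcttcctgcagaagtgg
Hspa1a and Hspa1b are neighbouring genes that encode nearly the same protein, so whether the Hspa1b probe also takes up Hspa1a RNA was not tested. A second probe named Hspa1b was well above background on 0 of 20 arrays and was not used.

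Values are log2 signals relative to the 75th percentile of the same array, so a value of 0 is a signal equal to that percentile, and levels are not compared between probes. Differences are the first group minus the second with their standard error (SE), tested with limma over all 16801 genes in 1 model of the 20 arrays. A gene was called at a Benjamini-Hochberg adjusted p under 0.05. The 4 comparisons with WKY share its arrays, so they are not independent of each other. The arrays lay on 3 slides: 2K1C alone on 1, SHR with SHRSP on another, and 1K1C with WKY on the last. Slide and group therefore cannot be told apart in the SHR, SHRSP and 2K1C comparisons with WKY and in 1K1C against 2K1C. Total RNA of a whole artery was used, so a change in the share of a cell type and a change in RNA per cell cannot be told apart.

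Several arrays stood apart in marker genes of other cells, given here as summed linear signals relative to the 75th percentile. SHR 1 had a summed smooth muscle signal (7 of 7 markers measured) of 79.2, against 249 to 325 on the other SHR arrays. Its summed white adipocyte signal (6 of 6 markers) was 323, against 102 to 131. Its sum of 4 mesothelium markers was 10.6, against 0.15 to 0.20. On 1K1C 2 the smooth muscle sum was 20.2, against 83.6 to 168 on the other 1K1C arrays. On WKY 1 the sum of 6 neuronal markers was 206, against 2.30 to 22.9 on the other WKY arrays, and that of the brown adipocyte markers 159, against 15.9 to 25.2. The sum of 6 lymphocyte and plasma cell markers was 25.6 on 2K1C 4 and 8.997 on SHRSP 4, against at most 1.42 on the other 18 arrays. The sum of 10 exocrine pancreas markers, a tissue rich in ER, was 5.59 to 26.2 in SHR, 0.42 to 60.2 in SHRSP, 0.77 to 5.05 in 2K1C, 1.78 to 8.54 in 1K1C and 0.37 to 27.8 in WKY. All 10 averaged higher in SHR and in SHRSP than in WKY, 0 of them with an unadjusted p under 0.05. The smooth muscle markers were well above background on all 20 arrays. The part of these cell mixtures in the results below was not tested.

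The largest differences of the set lay in Hspa1b and Hspb8, Hspa1b with values above WKY and Hspb8 with values below it in SHR and SHRSP. These were the 2 of 38 genes called by the F test over the 5 groups (adjusted p = 0.0305 for Hspa1b and 0.0158 for Hspb8, limma), a test that called 3.25% of all genes. In single comparisons, 1 of 38 genes was called: Hspb8 in SHRSP against WKY, a comparison that called 2.44% of all genes.

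Hspa1b encodes the stress-inducible cytosolic Hsp70, which is low in unstressed cells and rises after heat or proteotoxic stress. Its values were 0.59, 3.77, 4.15 and 2.88 on the SHR arrays and 1.55, 3.05, 4.42 and 2.84 on the SHRSP arrays. In 2K1C they were 1.42, 1.57, 1.60 and -0.28, in 1K1C -1.59, -2.56, 0.25 and 0.22, and in WKY 1.90, -1.17, -0.74 and -0.78. On 3 of 4 arrays each, SHR and SHRSP lay above all WKY arrays, while SHR 1 and SHRSP 1 lay below WKY 1. The difference was 3.05 ± 0.87 in SHR against WKY (8.27-fold, adjusted p = 0.0844) and 3.17 ± 0.87 in SHRSP against WKY (8.97-fold, adjusted p = 0.0633), neither of them called by limma. Without WKY 1, the array with the high neuronal sum, the differences were 3.75 and 3.86 and both passed (adjusted p = 0.0354 and 0.0238). Without SHR 1, that of SHR was 3.80 (adjusted p = 0.0224). Over all single arrays left out, the adjusted p ran from 0.0224 to 0.258 in SHR and from 0.0238 to 0.207 in SHRSP. In 2K1C the difference from WKY was 1.28 ± 0.87 (adjusted p = 0.381) and in 1K1C -0.72 ± 0.87 (adjusted p = 0.782). The F test of Hspa1b missed the threshold in 10 of 30 fits, which are the one reported, 9 with other processing and 20 without 1 array, with an adjusted p of up to 0.0704.

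Hspb8, a small heat shock protein that acts with Bag3 to send misfolded proteins to autophagy, averaged lower in all 4 other groups than in WKY. Its values were -1.43, -1.58, -1.15 and -1.50 in SHR and -2.46, -1.68, -1.67 and -2.16 in SHRSP. They were -1.84, -2.50, -2.55 and -2.93 in 2K1C, -2.09, -1.49, -1.65 and -2.51 in 1K1C, and -0.40, 0.43, 0.80 and -1.59 in WKY. WKY 4 lay among the other groups, and WKY 1 to 3 lay above every other array. Hspb8 was lower in SHRSP than in WKY by 1.80 ± 0.39 (3.49-fold, adjusted p = 0.0189). The differences from WKY were -1.22 ± 0.39 in SHR (adjusted p = 0.132), -2.26 ± 0.39 in 2K1C (4.80-fold lower, adjusted p = 0.0827) and -1.74 ± 0.39 in 1K1C (3.35-fold lower, adjusted p = 0.152). In 2K1C it was called with the deposited value table (adjusted p = 0.038) and with normexp and quantile normalization (0.0359). It was also called with the replicate number as a block (0.04), and its adjusted p ran up to 0.261 with an array left out. Without WKY 4 all 4 were called, at -1.69 in SHR, -2.27 in SHRSP, -2.73 in 2K1C and -2.21 in 1K1C (adjusted p between 0.000339 and 0.00425). In SHR and in 1K1C this was the only 1 of 8 fits with an array left out that called Hspb8. The limma adjusted p there ran up to 0.416 in SHR and 0.438 in 1K1C. Over such fits, up to 690, 941, 886 and 235 of all genes were called in SHR, SHRSP, 2K1C and 1K1C. The call in SHRSP was lost without WKY 2 or WKY 3 (adjusted p = 0.0735 and 0.0794), without SHRSP 1 or SHRSP 4 (0.0715 and 0.0524), and when only SHRSP and WKY were fitted (0.132). The neuronal marker sum was 30.3 on 2K1C 1 and between 1.33 and 3.54 on the other 15 arrays of the 4 other groups, against 206, 12.6, 22.9 and 2.30 on WKY 1 to 4. On WKY 1 to 4 the sum of 8 striated muscle markers was 0.44, 1.37, 1.95 and 0.68. That of 4 mesothelium markers was 0.21, 7.20, 3.12 and 0.29. Over the other groups these sums reached 1.43 on SHRSP 3 and 10.6 on SHR 1. The part of these cell mixtures in the Hspb8 values was not tested.

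**Figure D1:**
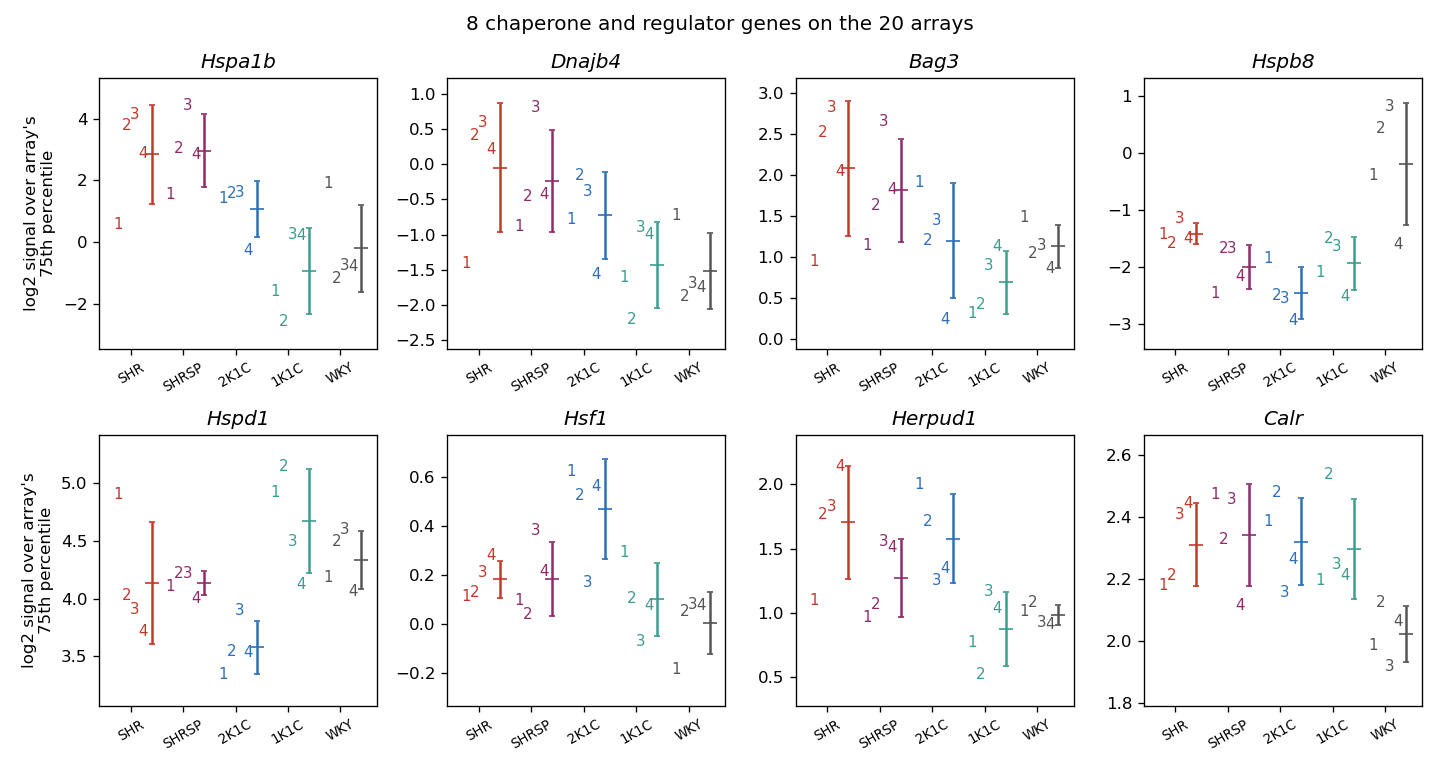
Values of 8 genes on each array, as log2 signal relative to the 75th percentile of the array (vertical axes differ between panels). Digits are the replicate numbers of SHR, SHRSP, 2K1C, 1K1C and WKY, and the bar beside them is the mean ± SD of 4 arrays; Hspa1b of SHR 1 and WKY 1 and Hspb8 of WKY 4 lie apart from their groups.

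Among the other cytosolic Hsp70 and Hsp90 genes, 0 were called in any comparison, and Hspa2 in 1K1C had the largest difference from WKY. Hspa8, the constitutive Hsp70, ranged from 5.70 to 6.83 over the 20 arrays and differed from WKY by between -0.10 and 0.25 in the 4 comparisons. It has 4 probes, which gave 0.15 to 0.25 in SHR but differed in sign in SHRSP (-0.15 to 0.14) and in 2K1C (-0.42 to 0.05). Hspa4, an Hsp110-type exchange factor of Hsp70, averaged 1.22 ± 0.25 in 2K1C, 1.18 ± 0.24 in 1K1C and 1.56 ± 0.48 in WKY (SD, n = 4 each). Hspa2, an Hsp70 best known from the testis, was -1.27, -2.50, -0.59 and 0.27 in 1K1C, against -0.14, 0.25, 0.61 and 0.35 in WKY. Its lowest value was on 1K1C 2, the array with the lowest smooth muscle sum, and 3 of 4 1K1C arrays lay below every WKY array. The difference of -1.29 ± 0.52 had an adjusted p of 0.441. The Hsp90 genes Hsp90aa1 and Hsp90ab1, whose products hold kinases and steroid receptors ready for activation, differed from WKY by at most 0.13 upwards at the probes used. The other 2 Hsp90aa1 probes gave 0.26 and -0.05 in SHR and 0.23 and -0.17 in SHRSP. For Hsp90ab1 in SHRSP, the other 2 probes gave -0.24 and -0.28, against 0.02 for the one used. Hsp90aa1 was -0.56 ± 0.25 in 2K1C against WKY (adjusted p = 0.205), and its other 2 probes gave 0.02 and -0.36.

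The co-chaperones Dnajb4, Dnajb1 and Bag3 averaged above WKY in both hypertensive strains, without a call. Dnajb4, a J-protein that hands clients to Hsp70, had values of -1.41, 0.41, 0.59 and 0.21 in SHR and -0.88, -0.46, 0.81 and -0.42 in SHRSP, against -0.72, -1.88, -1.70 and -1.75 in WKY. SHR 2 to 4 lay above every WKY array, and SHR 1 lay within the WKY range. The difference was 1.46 ± 0.46 in SHR (2.76-fold, adjusted p = 0.122) and 1.28 ± 0.46 in SHRSP (2.42-fold, adjusted p = 0.169). Dnajb1, the J-protein most closely tied to HSF1 activity, had 0.69, 2.01, 2.26 and 1.64 in SHR and 0.39, 1.02, 2.49 and 1.55 in SHRSP, against 1.16, 0.34, 0.45 and 0.42 in WKY. Its difference was 1.06 ± 0.37 in SHR (adjusted p = 0.171) and 0.77 ± 0.37 in SHRSP (adjusted p = 0.299). Bag3, the co-chaperone that links Hsp70 with small heat shock proteins, had 0.95, 2.52, 2.82 and 2.04 in SHR, against 1.48, 1.04, 1.14 and 0.86 in WKY. Its difference was 0.95 ± 0.40 in SHR (adjusted p = 0.278) and 0.68 ± 0.40 in SHRSP (adjusted p = 0.404). In each of these genes the lowest SHR value was on SHR 1, the array low in smooth muscle markers, and the highest WKY value was on WKY 1. Dnaja1, a J-protein of the Hsp70 cycle, differed from WKY by 0.39 ± 0.29 in SHR, averaged 2.97 in both SHRSP and WKY, and differed by -0.41 ± 0.29 in 2K1C (adjusted p = 0.587, 0.998 and 0.397). Hsph1, an Hsp110 that recharges Hsp70, differed by 0.58 ± 0.36 in SHR (adjusted p = 0.509). Without SHR 1, Dnajb4 (1.92, adjusted p = 0.0226), Dnajb1 (1.38, adjusted p = 0.0412), Herpud1 (0.93, adjusted p = 0.0224) and Hspa1b passed the threshold in SHR against WKY. Over all genes, 301 were called in this comparison in the reported fit, and 129 to 690 with single arrays left out. Whether these chaperone genes gained calls beyond genes in general without SHR 1 was not tested.

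The small heat shock proteins did not move as 1 group. Hspb1, which protects actin filaments, had 3.38, 4.52, 4.83 and 4.75 in SHR and 3.92, 4.08, 5.09 and 4.06 in SHRSP, against 3.92, 3.27, 3.51 and 3.34 in WKY. Cryab, alpha-B crystallin, had 4.45, 5.72, 5.92 and 6.31 in SHR, against 5.06, 4.42, 4.34 and 5.10 in WKY. The SHR minus WKY differences were 0.86 ± 0.38 for Hspb1 and 0.87 ± 0.38 for Cryab (adjusted p = 0.312 for both), again with SHR 1 lowest. Hspb2, encoded beside Cryab, was 0.80 ± 0.36 in 2K1C against WKY (adjusted p = 0.211). Hspb6, a target of cyclic nucleotide signals in relaxing smooth muscle, had -0.42, -0.76, -0.33 and 0.03 in 1K1C, against -0.17, 1.25, 1.85 and -0.47 in WKY. Its difference was -0.99 ± 0.46 (adjusted p = 0.523). WKY 2 and WKY 3, which held the 2 highest Hspb8 values, also held the 2 highest Hspb6 values of the 20 arrays.

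Hsf1, the regulator itself, averaged highest in 2K1C. Its values were 0.62, 0.52, 0.17 and 0.56 in 2K1C, against -0.19, 0.05, 0.08 and 0.07 in WKY, and the 2 groups did not overlap. The difference was 0.46 ± 0.12 (1.38-fold, adjusted p = 0.096), and it passed the threshold without 2K1C 3 (adjusted p = 0.0348), without WKY 4 (0.0461) and with normexp background correction and quantile normalization together (0.0496). In every other setting it did not pass. Over all genes, 2 were called in this comparison in the reported fit, 76 with that normalization and 0 to 886 with single arrays left out. In SHR and SHRSP the Hsf1 differences from WKY were 0.18 ± 0.12 each. Beside that, Hspa1b differed from WKY by 1.28 ± 0.87 and Dnajb1 by 0.37 ± 0.37 in 2K1C, both within 2 SE.

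The 3 mitochondrial chaperones averaged lowest in 2K1C and highest in 1K1C. Hspd1 (Hsp60) and Hspe1 (Hsp10) form the folding chamber of the matrix, and Hspa9 (mortalin) pulls proteins into it. Hspd1 was 3.34, 3.55, 3.89 and 3.54 in 2K1C and 4.91, 5.14, 4.49 and 4.13 in 1K1C, against 4.18, 4.49, 4.59 and 4.06 in WKY. Hspe1 was 3.92, 4.31, 4.50 and 4.34 in 2K1C and 5.48, 5.58, 5.14 and 4.60 in 1K1C, against 5.04, 5.10, 5.09 and 4.44 in WKY. Hspa9 was -0.85, -0.73, -0.56 and -0.74 in 2K1C and 0.45, 0.48, -0.09 and -0.48 in 1K1C, against -0.14, 0.01, 0.25 and -0.46 in WKY. Against WKY, the 2K1C differences were -0.75 ± 0.24 for Hspd1 (adjusted p = 0.125), -0.65 ± 0.23 for Hspe1 (0.142) and -0.64 ± 0.23 for Hspa9 (0.149). In 1K1C minus 2K1C they were 1.09 ± 0.24 (2.13-fold), 0.93 ± 0.23 (1.91-fold) and 0.81 ± 0.23 (1.76-fold), with adjusted p of 0.0734, 0.0734 and 0.0761. All 3 were called in that comparison without 1K1C 4 (adjusted p = 0.0187 each), a setting in which 1863 of all genes were called. A second Hspe1 probe gave 0.94 in 1K1C minus 2K1C and -0.79 in 2K1C minus WKY.

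White adipocyte and smooth muscle markers moved with the same groups. The white adipocyte sum was 146 to 367 in 1K1C and 60.5 to 129 in 2K1C, against 100.4 to 288 in WKY, and all 6 of its markers were higher in 1K1C than in 2K1C with an unadjusted p under 0.05. The smooth muscle sum was 20.2 to 168 in 1K1C and 109.6 to 312 in 2K1C. SHR 1, with the highest white adipocyte sum of its strain, also had the highest value of its group in 3 of 3 mitochondrial genes. So did 1K1C 2, the array with the highest sum of all, and 2K1C 3, with the highest sum of its group. SHRSP 2 and WKY 2, with the highest sums of their groups, were highest in 1 of 3 genes each. SHRSP 3 and WKY 3 were highest in 2 of 3. Of the 18 ER genes, 10 were highest of their group on SHR 1, 7 on 1K1C 2, 6 on 2K1C 3, 8 on WKY 2 and 3 on SHRSP 2. Xbp1 and Pdia6 were highest on all of these arrays except SHRSP 2, and Dnajc3 on all except 2K1C 3. Manf was highest only on SHRSP 2 among them. The part of the cell mixture in the mitochondrial and ER differences was not tested.

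ER chaperones of the lumen differed little between the groups. Hspa5 (BiP), the main ER Hsp70 and gatekeeper of the stress sensors, had 4.44, 4.07, 4.19 and 3.99 in SHR, 4.34, 4.40, 3.92 and 4.12 in SHRSP, and 3.87, 4.15, 3.94 and 3.76 in WKY. The differences were 0.24 ± 0.15 and 0.27 ± 0.15, each with a range over arrays that overlapped WKY. Hsp90b1 (GRP94), the Hsp90 of the ER, had 1.75, 1.74, 1.73 and 1.72 in SHRSP, against 1.34, 1.43, 1.33 and 1.46 in WKY. Its SHRSP arrays all lay above WKY, by 0.35 ± 0.12 (1.27-fold, adjusted p = 0.167). Hyou1, an Hsp110-type ER chaperone, was 0.28 ± 0.11 higher in SHRSP (adjusted p = 0.222). The J-protein Dnajb9 was 0.33 ± 0.13 lower in 2K1C and 0.29 ± 0.13 lower in 1K1C than in WKY (adjusted p = 0.172 and 0.504). Dnajc3, a J-protein that restrains PERK, had 0.96, 1.15, 0.87 and 0.74 in 1K1C, against 0.18, 0.52, 0.50 and 0.31 in 2K1C. Its 1K1C minus 2K1C difference was 0.55 ± 0.15 (adjusted p = 0.0748). Sdf2l1 was the ER gene with the widest spread between replicates (SD 0.46), and its differences from WKY lay between -0.18 and 0.12. The secreted stress proteins Manf and Creld2 differed from WKY by between -0.25 and 0.42.

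Calr, the lectin chaperone calreticulin and a calcium store of the ER, was lower in WKY than in every other group. Its values were 2.18, 2.21, 2.41 and 2.44 in SHR and 2.47, 2.33, 2.46 and 2.12 in SHRSP. They were 2.38, 2.48, 2.16 and 2.26 in 2K1C, 2.20, 2.54, 2.25 and 2.21 in 1K1C, and 1.99, 2.12, 1.92 and 2.06 in WKY. SHRSP overlapped WKY by 1 array, and the other groups did not overlap it. The differences of 0.29, 0.32, 0.30 and 0.28 (SE 0.12 each, 1.21-fold to 1.25-fold) were not called, with adjusted p of 0.27, 0.18, 0.17 and 0.48 in SHR, SHRSP, 2K1C and 1K1C. Canx, the membrane-bound partner calnexin, differed from WKY by between -0.18 and -0.04.

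The protein disulfide isomerases, which form and shuffle disulfide bonds, differed from WKY by under 0.5 in every group. P4hb, the founding member, had 3.26, 3.44, 3.47 and 3.22 in 1K1C, against 2.81, 2.99, 2.88 and 3.06 in WKY. The groups did not overlap, and the difference was 0.41 ± 0.13 (1.33-fold, adjusted p = 0.252). Pdia6 had 3.59, 4.00, 3.92 and 3.66 in 1K1C and 3.01, 3.36, 3.52 and 2.96 in 2K1C, with 3.32, 3.59, 3.47 and 3.46 in WKY. In 1K1C minus 2K1C the difference was 0.59 ± 0.16 (1.50-fold, adjusted p = 0.0748). Pdia4 was 0.29 ± 0.13 higher in SHR and 0.37 ± 0.13 higher in SHRSP than in WKY (adjusted p = 0.32 and 0.16). Pdia3, the isomerase that works with Calr and Canx, differed from WKY by between -0.19 and 0.16 in the 4 comparisons.

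Among the regulators and sensors' targets of the unfolded protein response, Herpud1 and Xbp1 differed most. Herpud1, part of the machinery that sends ER proteins to degradation, had 1.09, 1.76, 1.83 and 2.14 in SHR and 0.96, 1.06, 1.55 and 1.51 in SHRSP. It had 2.00, 1.71, 1.25 and 1.35 in 2K1C and 0.77, 0.52, 1.17 and 1.04 in 1K1C, against 1.01, 1.08, 0.92 and 0.91 in WKY. All SHR and all 2K1C arrays lay above all WKY arrays, SHR 1 by the narrowest margin. The differences were 0.72 ± 0.22 in SHR (1.65-fold, adjusted p = 0.103) and 0.60 ± 0.22 in 2K1C (1.51-fold, adjusted p = 0.151). In 1K1C minus 2K1C Herpud1 was -0.70 ± 0.22 (adjusted p = 0.0882). Xbp1, whose mRNA is spliced by IRE1 to give the active factor, had 2.18, 2.71, 2.00 and 1.95 in 1K1C and 1.28, 1.75, 1.77 and 1.38 in 2K1C. In WKY it had 1.59, 2.33, 2.25 and 1.83. Xbp1 averaged 2.21 in 1K1C, 1.55 in 2K1C and 2.00 in WKY, and its 2K1C minus WKY difference (-0.45) was the lowest of the ER genes. In 1K1C minus 2K1C it differed by 0.67 ± 0.20 (1.59-fold, adjusted p = 0.0818), and its probe does not report splicing here. Atf4, the factor translated when PERK is active, was 0.29 ± 0.15 in SHR and 0.30 ± 0.15 in SHRSP against WKY (adjusted p = 0.411 and 0.332). Ddit3 (CHOP), its target linked to cell death, differed from WKY by between -0.14 and 0.01.

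**Figure D2:**
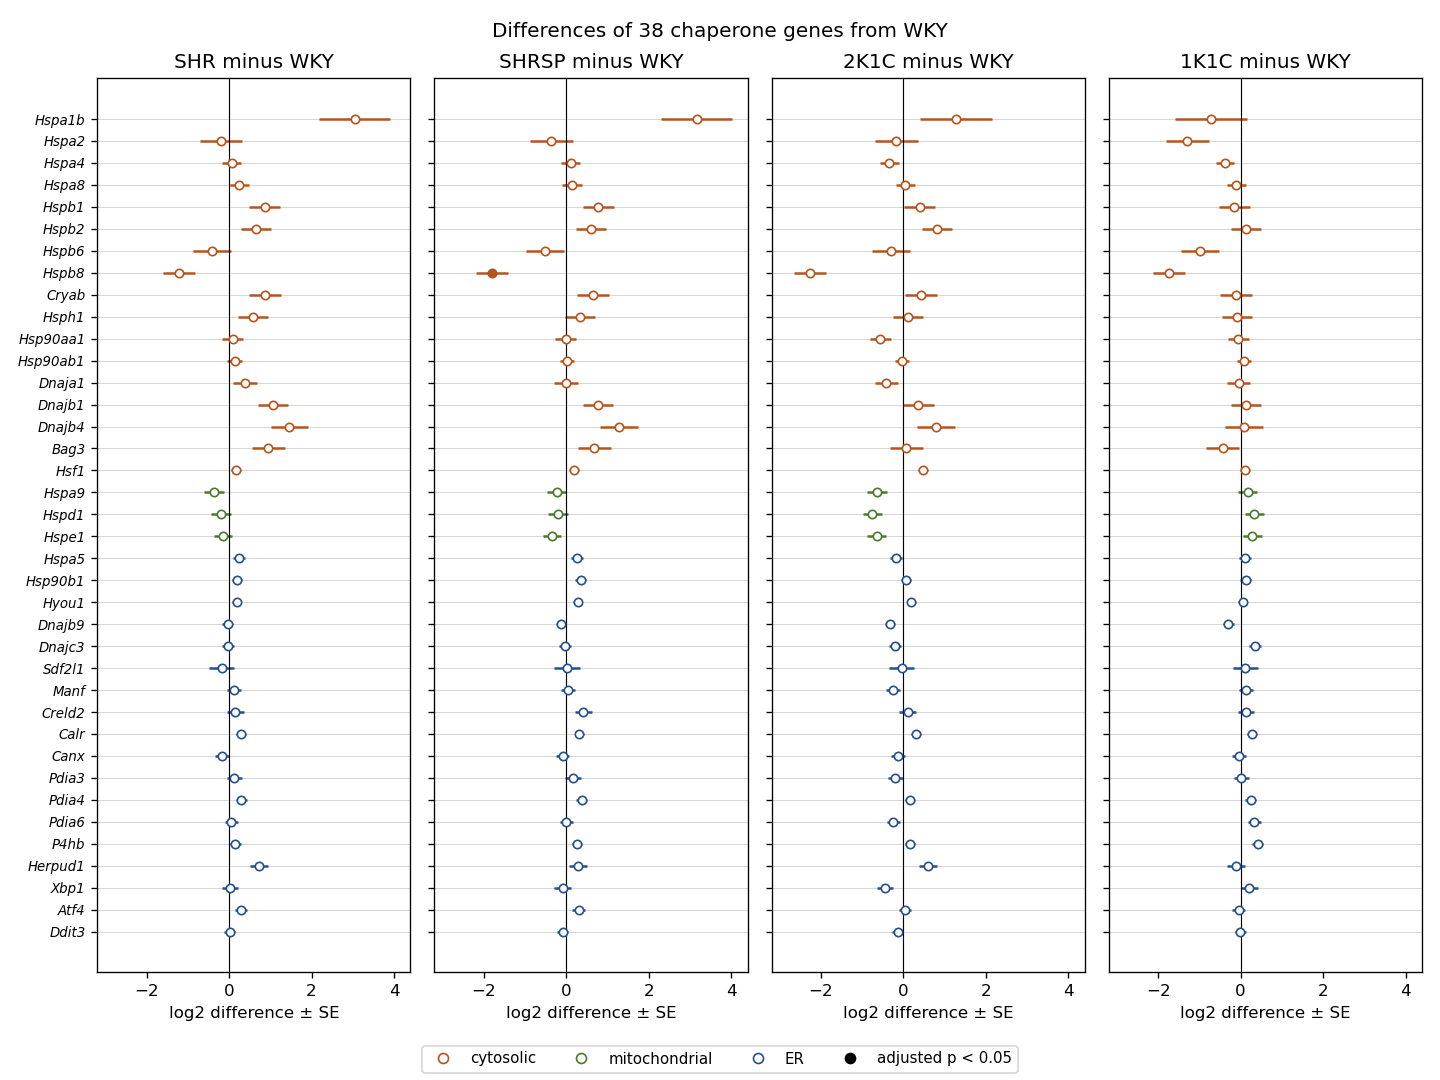
Log2 difference from WKY with its SE for each of the 38 genes in SHR, SHRSP, 2K1C and 1K1C, coloured by compartment, with filled points for an adjusted p under 0.05. Hspb8 in SHRSP (-1.80) is the only filled point, and Hspa1b in SHR (3.05) and SHRSP (3.17) lies farthest to the right.

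Read as whole groups, the cytosolic and the ER genes leaned above WKY in the hypertensive strains. The 30 further cytosolic chaperones and regulators tested did not, with 14 higher in SHR and 9 in SHRSP. The 28 further ER and unfolded protein response genes tested did, with 20 higher in SHR and 20 in SHRSP (medians 0.08 and 0.13). All these lists were chosen with earlier results of these data known. In SHR against WKY, 14 of 17 cytosolic genes, 0 of 3 mitochondrial and 14 of 18 ER genes were higher, beside 52.4% of all genes. The medians were 0.39, -0.20 and 0.14, beside a median of 0.02 over all genes tested. At an unadjusted p under 0.05, 9 of the 38 genes were higher and 1 was lower, beside 7.27% and 6.77% of all genes, and 0 were called, beside 1.79% of all genes. In SHRSP against WKY, 12 of 17 cytosolic and 12 of 18 ER genes were higher, beside 50.5% of all genes. The medians were 0.18 and 0.21, beside 0.00 over all genes. Here 7 genes were higher and 1 lower at an unadjusted p under 0.05 (9.21% and 7.37% of all genes), and 1 was called (2.44% of all genes). The cytosolic median of SHR stayed between 0.23 and 0.56 when single arrays were left out, and that of SHRSP between 0.09 and 0.37.

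For the clip operations the counts were mixed. In 2K1C against WKY, 10 of 17 cytosolic and 8 of 18 ER genes were higher, beside 53.6% of all genes. The medians were 0.07 and -0.09, beside 0.04 over all genes, and the cytosolic median changed sign without WKY 4 (-0.09). At an unadjusted p under 0.05, 4 genes were higher and 7 lower (10.8% and 11.2% of all genes), and 0 were called (0.0119% of all genes). 1K1C against WKY was the one comparison with WKY that lay within a slide. There 5 of 17 cytosolic and 13 of 18 ER genes were higher, beside 65.2% of all genes. The medians were -0.10 and 0.12, beside 0.10 over all genes. Without WKY 1 the cytosolic median was 0.03. At an unadjusted p under 0.05, 4 genes were higher and 4 lower (4.93% and 4.34% of all genes). Of all genes 0, or 0% of those tested, were called by limma in this comparison, and 1557 had an unadjusted p under 0.05.

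In the 2 comparisons between hypertensive models, 0 of 38 genes were called. In SHRSP against SHR, which lie on the same slide, 0 of 38 genes had an unadjusted p under 0.05 in either direction (2.04% higher and 1.59% lower over all genes) and 0 were called (0.351% of all genes). The difference for Hspa1b was 0.12 with a 95% interval of -1.70 to 1.94, and for Hspb8 -0.58 with an interval of -1.41 to 0.24, so neither interval is narrow. The SHRSP cytosolic median was -0.12 relative to SHR, and -0.44 without SHR 1. In 1K1C against 2K1C, 7 of 38 genes were higher and 4 lower at an unadjusted p under 0.05 (15.5% and 5.76% of all genes), while 0 of all genes (0%) were called and 3580 had an unadjusted p under 0.05. The 7 higher genes were the 3 mitochondrial ones, Dnajc3, Pdia6, Xbp1 and Manf, and the 4 lower ones were Herpud1, Hsf1, Hspa1b and Hspa2. The cytosolic median was -0.37 and the ER median 0.11, beside 0.01 over all genes.

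**Figure D3:**
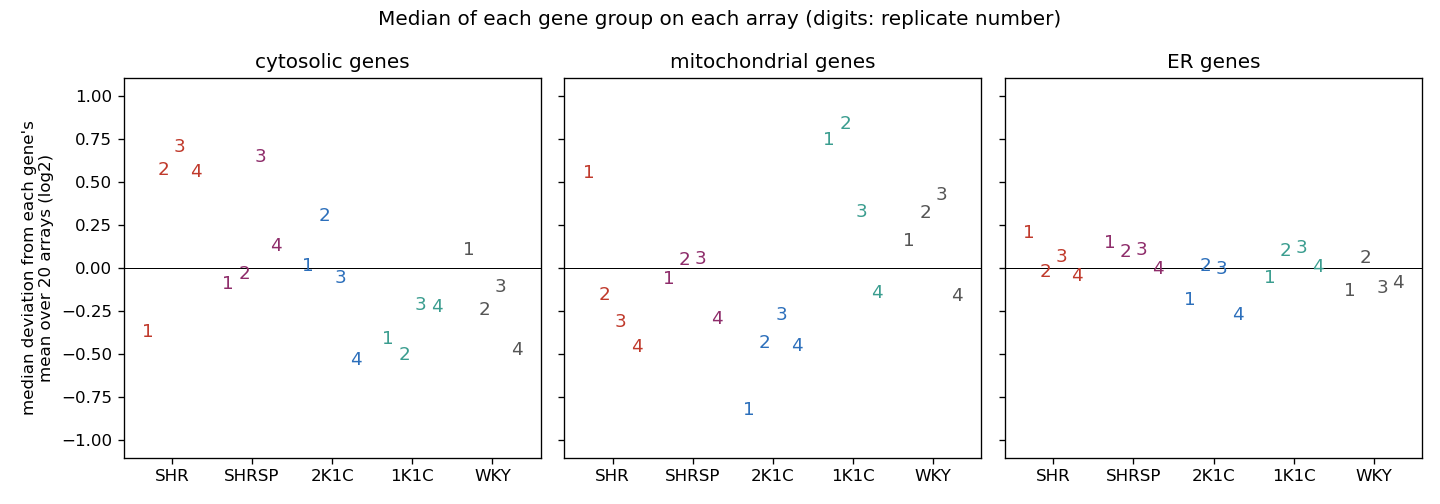
Median over the genes of each compartment of the deviation from each gene's mean over the 20 arrays (log2), for every array of SHR, SHRSP, 2K1C, 1K1C and WKY, with digits for the replicate. SHR 2 to 4 and SHRSP 3 are highest in the cytosolic panel, SHR 1 lies apart from its group there and in the mitochondrial panel, and the ER panel spans less than the other 2.

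The cytosolic genes varied more between rats of a group than most genes, and the ER genes less. The SD between arrays of a group, pooled over the 5 groups, had a median of 0.55 over the cytosolic genes and 0.20 over the ER genes, beside 0.31 over all genes tested. It was above the all-gene median for 15 of 17 cytosolic, 3 of 3 mitochondrial and 2 of 18 ER genes. Hspa1b had the widest spread of the set (SD 1.32, above that of 98.0% of genes), followed by Hspa2 (0.79), Dnajb4 and Hspb6 (0.69 each). Hsf1 was an exception among the cytosolic genes with 0.15, lower than in most genes. At the low end of the ER genes were Hyou1 (0.13), Calr (0.14) and Hsp90b1 (0.15).

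**Figure D4:**
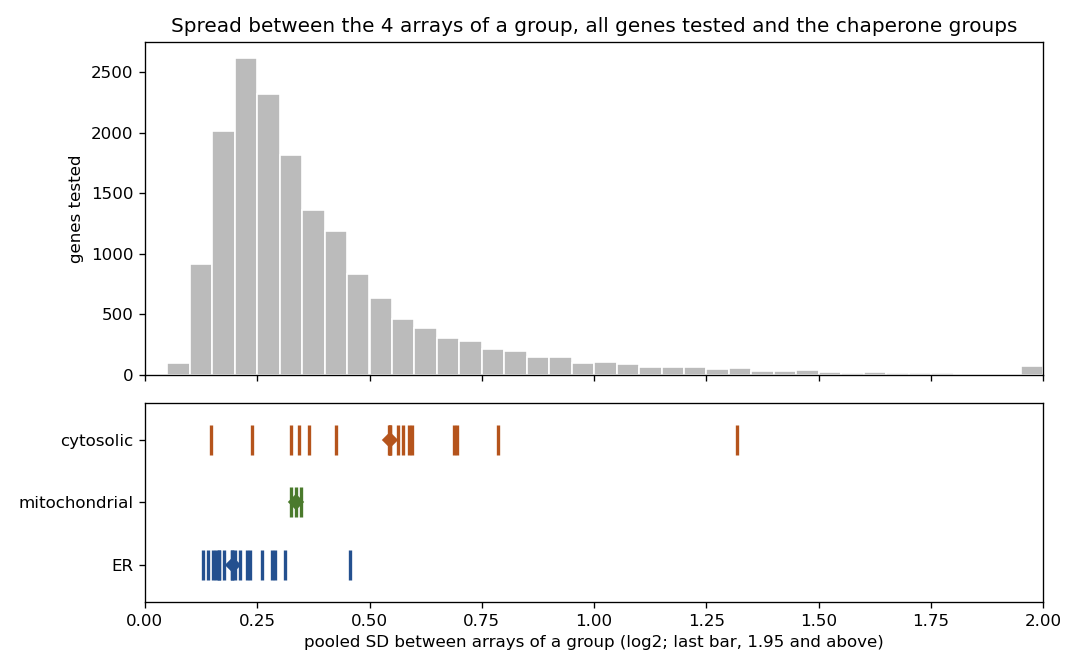
Upper panel, number of tested genes by pooled SD between arrays of a group (log2). Lower panel, the same SD of each cytosolic, mitochondrial and ER gene (ticks) with the median of each compartment (diamonds), at 0.55, 0.34 and 0.20.

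That spread was shared between genes of an array. Within the SHR group, SHR 1 had the lowest value in 14 of 17 cytosolic genes and SHR 3 the highest in 11. SHRSP 3 had the highest value of its group in 15 of 17, and WKY 1 in 12 of 17. The median deviation of the cytosolic genes was -0.37 on SHR 1, against up to 0.70 on the other SHR arrays, and ran from -0.09 to 0.64 over SHRSP and from -0.48 to 0.10 over WKY. The ER genes spanned -0.05 to 0.20 in SHR, -0.01 to 0.14 in SHRSP, -0.28 to 0.01 in 2K1C, -0.06 to 0.12 in 1K1C and -0.13 to 0.06 in WKY. SHRSP 3, with its high cytosolic values, had a smooth muscle sum of 316, against 139 to 199 on the other SHRSP arrays. The low SHR 1 had the lowest smooth muscle sum of its group, while WKY 1, high in 12 cytosolic genes, had the lowest of WKY (117).

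Among other genes of the same pathways, 1 gene was called, in both SHR and SHRSP against WKY. Of 30 further cytosolic chaperones and regulators tested (31 listed) 0 were called in any comparison, and of 28 further ER and unfolded protein response genes (34 listed) 1 was called. Over all genes, 1.79% were called in SHR and 2.44% in SHRSP against WKY. That gene was Dnajc10, an ER J-protein and disulfide reductase. It was higher than in WKY by 0.62 ± 0.13 in SHR and by 0.59 ± 0.13 in SHRSP (adjusted p = 0.0201 for both). It averaged 2.05 ± 0.12 in SHR, 2.03 ± 0.11 in SHRSP, 1.41 ± 0.21 in 2K1C, 1.43 ± 0.15 in 1K1C and 1.44 ± 0.20 in WKY (SD, n = 4 each). Of the 30 further cytosolic genes, 14 were higher in SHR and 9 in SHRSP than in WKY, with medians of -0.02 and -0.11. In SHRSP 0 were higher and 3 lower at an unadjusted p under 0.05, beside 9.21% and 7.37% of all genes. In 2K1C against WKY, 8 of 30 were lower and 0 higher at an unadjusted p under 0.05, beside 11.2% and 10.8% of all genes. Of the 7 chaperonin subunits tested, 3 were among them, Cct2 (-0.44 ± 0.15), Cct4 (-0.43 ± 0.14) and Cct8 (-0.39 ± 0.16), while Cct3, Cct5, Cct7 and Tcp1 differed by between -0.22 and 0.01. In 1K1C minus 2K1C, Cct2, Cct3, Cct4 and Cct5 were higher by 0.35 to 0.41, with adjusted p between 0.125 and 0.205, and Cct7, Cct8 and Tcp1 differed by between -0.13 and 0.09. Among the targets of ATF4 in the further ER list, Trib3 differed by 1.20 ± 0.29 and Asns by 1.58 ± 0.45, and Ppp1r15a by -1.01 ± 0.32, in 1K1C minus 2K1C (adjusted p between 0.0734 and 0.0897). Chac1, another such target, differed by 0.03 ± 0.15 (adjusted p = 0.943). These Cct genes and ATF4 targets were chosen after their values were seen.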

How the data were processed

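Total RNA of the whole mesenteric artery was hybridised in Cy3 to 20 Agilent arrays, 4 in each of 5 groups (SHR, SHRSP, 2K1C, 1K1C and WKY), whose groups come from the labels. The deposited intensity values are the processed signals of Agilent Feature Extraction 10.7.3.1, background-subtracted and detrended per array by the authors, per the file headers, with no scaling between arrays. Values used here are log2 of that signal minus each array's 75th percentile over the 58717 spots that are not controls, of 62976 features. Spots marked as outliers were left out and spots of a probe averaged. A gene is the probe with the highest mean of each gene name, tested if its 4 signals in some group were each well above background, which left 16801 genes. Differences were tested with limma 3.58.1 in R 4.3.3 (lmFit and eBayes, 1 model of 5 groups, no covariate), with Benjamini-Hochberg adjustment over all genes and a threshold of 0.05, and SE and 95% intervals are from that model. The number of arrays limits the precision.

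The arrays' 75th percentile signals and spot flags are those of the scanner files, and 0 of 38 genes had a missing array. On simulated data for SHR against WKY over 16801 genes, 71% of 100 genes changed by 1 and 91% of 100 genes changed by 2 on the log2 scale were recovered, with 5 false calls. The changed genes were drawn at random from all genes, and the simulated noise was independent between genes. The cytosolic genes had a median SD of 0.55, beside 0.31 over all genes, and shared their deviations within an array. These shares therefore do not carry over to them. Named genes were those called, the 3 highest and 3 lowest differences of the cytosolic and ER lists per comparison, the regulators and every mitochondrial gene. The 39 genes and all lists were chosen with earlier results of these data known. Alternatives covered normalization, background correction, scaling, the deposited value table, the filter on dim probes, the probe of a gene, updated names, the samples in the fit, replicate numbers, slide and single arrays left out. Replicate numbers equal the column on the slide, and the labels name them as biological replicates without describing pairs. Correlations of deviations between arrays of the same number ran from -0.55 to 0.64, and of different numbers from -0.73 to 0.79. They cannot settle whether rats were paired, and the reported fit has no replicate block. Promoter windows were taken from RefSeq (GRCr8).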

Additional observations from a re-analysis of the deposited data

Results flagged for a closer look

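In 16 of 190 sets of 4 arrays of a group, 1 array lay far from the other 3, the gap to its nearest neighbour passing Dixon's 95% critical value. Chance gives about 1 in 20 such sets. On WKY 1, Hspa1b (1.90), Dnajb1 (1.16) and Dnajb4 (-0.72) were high and Hsf1 (-0.19) was low. On SHR 1, Hspa2 (-1.23) was low and Hyou1 (1.48), Pdia6 (3.92) and P4hb (3.20) were high. On SHR 4, Canx (-2.80) and Pdia3 (0.79) lay apart. On SHRSP 3, Hspb1 (5.09) was high and Dnajb9 (-1.76) was low. Single values lay apart for Hspa1b on 2K1C 4 (-0.28), Creld2 on 2K1C 1 (-1.45), Calr on 1K1C 2 (2.54) and Hspe1 on WKY 4 (4.44).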

How the results depend on the processing

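Slide, cell mixture and array number limit these results, and 4 arrays a group left 1 array able to change a call. The Hspb8 call in SHRSP against WKY was kept in 9 of 10 alternatives and in 4 of 8 fits with an array left out. Several of these alternatives could not change its difference. The settings for the probe of a gene, updated names, dim probes and the replicate block left it as it was. The number of the 38 genes called in SHRSP against WKY was 0 with only the groups compared. In 2K1C against WKY it was 2 with normexp and quantile normalization, 1 with the deposited value table and 1 with the replicate block, which called Hspb8 there (adjusted p = 0.04, limma) and changed no other call in a comparison of 2 groups. With single arrays left out it ran from 0 to 4 in SHR, 0 to 2 in SHRSP, 0 to 2 in 2K1C and 0 to 1 in 1K1C, each against WKY, from 0 to 6 in 1K1C against 2K1C, and from 0 to 8 in the F test. Hspa1b in SHRSP minus SHR changed sign without SHR 1 (-0.64) or SHRSP 3 (-0.37), with a highest value of 0.59. The ER median moved under the deposited value table, which has no scaling between arrays, to 0.38 in SHRSP, -0.32 in 2K1C and -0.034 in 1K1C against WKY and to 0.21 in SHRSP against SHR, and under scaling to the array median to 0.24 in SHR against WKY. The cause was not tested. Genes called over the whole array, against 301 in SHR, 410 in SHRSP and 2 in 2K1C against WKY, were 102, 159 and 0 with only the groups compared and 129, 216 and 2 with the value table. They were 190 in SHR with probes above background on all arrays, and 76 with normexp and quantile normalization together and 0 with median scaling in 2K1C. In 1K1C against WKY, quantile normalization gave 12 and the value table gave 7, against 0. In SHRSP against SHR, 59 became 39 with the value table or within the slide, and 31 with probes above background on all arrays. Of the SHR calls, 134 of 301 were higher, against 210 of 349 with quantile normalization, 199 of 337 with normexp and quantile normalization together and 225 of 353 with median scaling. Over single arrays left out, calls ran from 129 to 690 in SHR, 179 to 941 in SHRSP, 0 to 886 in 2K1C and 0 to 235 in 1K1C against WKY, and from 0 to 1863 in 1K1C against 2K1C. No slide block was possible where each group lay on its own slide.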
